A study of Mus musculus with 14 samples.

Results

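Mitochondrial and peroxisomal fatty acid oxidation is described here through 38 genes, chosen by symbol from a list of carnitine shuttle proteins, chain-shortening enzymes, electron transfer proteins, thioesterases and acyl-CoA synthetases. All 38 have a row among the 33459 gene IDs of the count table. By where their proteins are known to work, 22 were counted as mitochondrial, 10 as peroxisomal and 6 as working in both organelles or elsewhere. The study sequenced messenger RNA from heart and from gonadal white adipose tissue (gWAT, the fat pad around the gonads) of wild-type (WT) mice and of mice without Fhl2 (KO, FHL2-/-). Fhl2 encodes a LIM domain adaptor protein that is abundant in heart. All mice were C57BL/6, 21 weeks old, and all had been fed a high fat diet for 8 weeks, so the data hold no group on another diet. The groups were 4 heart WT, 4 heart KO, 3 gWAT WT and 3 gWAT KO libraries, with the numbers 1 to 4 in heart and 1, 3 and 4 in gWAT. The labels do not say whether each library came from its own animal, so each p-value measures only the spread between these libraries.

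Long-chain fatty acids enter mitochondria as carnitine esters through the shuttle of Cpt1, Slc25a20 and Cpt2. Acyl-CoA dehydrogenases, hydratases, hydroxyacyl-CoA dehydrogenases and thiolases then remove acetyl-CoA units in repeated cycles, and the electrons pass through the electron transfer flavoprotein to the respiratory chain. Peroxisomes use a parallel set of enzymes for very-long-chain and branched-chain fatty acids, and the branched phytanic acid is first shortened by alpha oxidation. Heart muscle draws most of its energy from mitochondrial fatty acid oxidation, whereas white fat mainly stores and releases fatty acids.

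The libraries held 10835092 to 13272412 counts in heart and 15105019 to 16040188 in gWAT. Levels are given as CPM, that is counts relative to the library total after TMM scaling over all 14 libraries, and levels of different genes are compared only as CPM per kilobase of the principal transcript. Fhl2, the deleted gene, was at 1205 to 1632 CPM in the heart WT libraries and at 33.5 to 44.3 in the heart KO libraries. In gWAT it was at 3.61 to 4.99 CPM in WT and at 0.208 to 0.376 in KO, so every library matched its genotype label. Cardiomyocyte markers (8 genes) summed to 44900 to 52180 CPM in heart and to 19.2 to 26.6 in gWAT. White adipocyte markers (9 genes) summed to 17530 to 28190 CPM in gWAT and to 925 to 1471 in heart, where most of the sum was Fabp4, at 816 to 1248. In such bulk tissue, fewer cells of a type and less RNA per cell cannot be told apart.

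Promoter sequences are shown for the 2 members that passed the test for the knockout in gWAT, for a pair of near-identical thiolase genes with different tissue levels, and for 2 genes that start back to back. Each but the last is the 100 bases before the start site in RefSeq on GRCm38.p6, read 5′ to 3′ on the strand of the gene. The last is the whole 85 bases between the bounds of both genes in GENCODE M21, on the plus strand. Capitals mark the GC box GGGCGG, searched on both strands and chosen after the sequences were seen. They lie at chr2:4918896-4918995 (Phyh), chr7:119760823-119760922 (Acsm3), chr9:119341194-119341293 (Acaa1a), chr9:119157094-119157193 (Acaa1b, minus strand) and chr5:30155163-30155247 (between Hadha and Hadhb).
Phyh: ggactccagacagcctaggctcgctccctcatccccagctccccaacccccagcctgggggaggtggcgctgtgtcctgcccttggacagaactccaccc
Acsm3: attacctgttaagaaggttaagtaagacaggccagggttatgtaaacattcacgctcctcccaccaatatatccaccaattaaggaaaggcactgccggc
Acaa1a: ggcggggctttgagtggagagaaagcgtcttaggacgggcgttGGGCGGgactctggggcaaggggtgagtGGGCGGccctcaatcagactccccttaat
Acaa1b: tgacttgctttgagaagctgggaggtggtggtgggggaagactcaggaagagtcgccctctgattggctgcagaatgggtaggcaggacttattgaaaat
between Hadha and Hadhb: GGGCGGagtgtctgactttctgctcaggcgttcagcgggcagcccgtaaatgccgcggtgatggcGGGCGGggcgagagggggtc

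The Acaa1a stretch and the Hadha and Hadhb stretch each hold 2 GC boxes, whereas the Phyh, Acsm3 and Acaa1b stretches hold 0. The Acaa1a and Acaa1b stretches have the same base at 32 of 100 positions when laid side by side without gaps, although 34% of the 50-base stretches of the Acaa1a transcript also occur in Acaa1b. The Acaa1a stretch lies inside the GENCODE M21 bounds of its gene (chr9:119339676-119350299), whereas the Acaa1b stretch adjoins the bound of its gene. The comparison of these 2 stretches therefore depends on the start site used. Over windows from 250 bases before to 50 after the start, 31 members had an entry, with 32 windows in all, and the members without one were Cpt1b, Hsd17b4, Crat, Decr1, Abcd2, Acaa2 and Acot13. A GC box lay in 20 of these 32 windows (62.5%), against 11714 of all 32851 promoter windows (35.7%), which were not matched to the members for expression or base composition. It lay in 11 of 18 mitochondrial windows (61.1%) and in 5 of 9 peroxisomal ones (55.6%). The estrogen-related receptor element TCAAGGTCA, found in 139 of all windows (0.423%), was in 0 of the 32. A direct repeat of AGGTCA with 1 base between the copies, found in 13 of all windows (0.0396%), was also in 0 of the 32, which says only that these exact letters are not in these windows.

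Between tissues, mitochondrial members were mostly higher in heart and peroxisomal members mostly higher in gWAT. In the WT libraries, 25 of 38 members were higher in heart and 10 were lower by edgeR's quasi-likelihood test with Benjamini-Hochberg adjustment at 0.05, where 69.4% of all 15287 genes tested passed (33.3% higher and 36.1% lower). The median log2 fold change, heart over gWAT, was 1.31 over the members and -0.03 over all genes. Of the 22 mitochondrial members, 18 were higher in heart and 2 lower, with a median of 1.69. Of the 10 peroxisomal members, 2 were higher and 8 lower, with a median of -1.57. Of the 6 others, 5 were higher and Acad11 did not pass. The KO libraries, which the WT comparison does not use, gave 25 members higher and 12 lower, where 69.8% of 15245 genes passed (35% higher and 34.8% lower). There, too, 18 mitochondrial members were higher and 3 lower, and 2 peroxisomal members were higher and 8 lower.

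**Figure D1:**
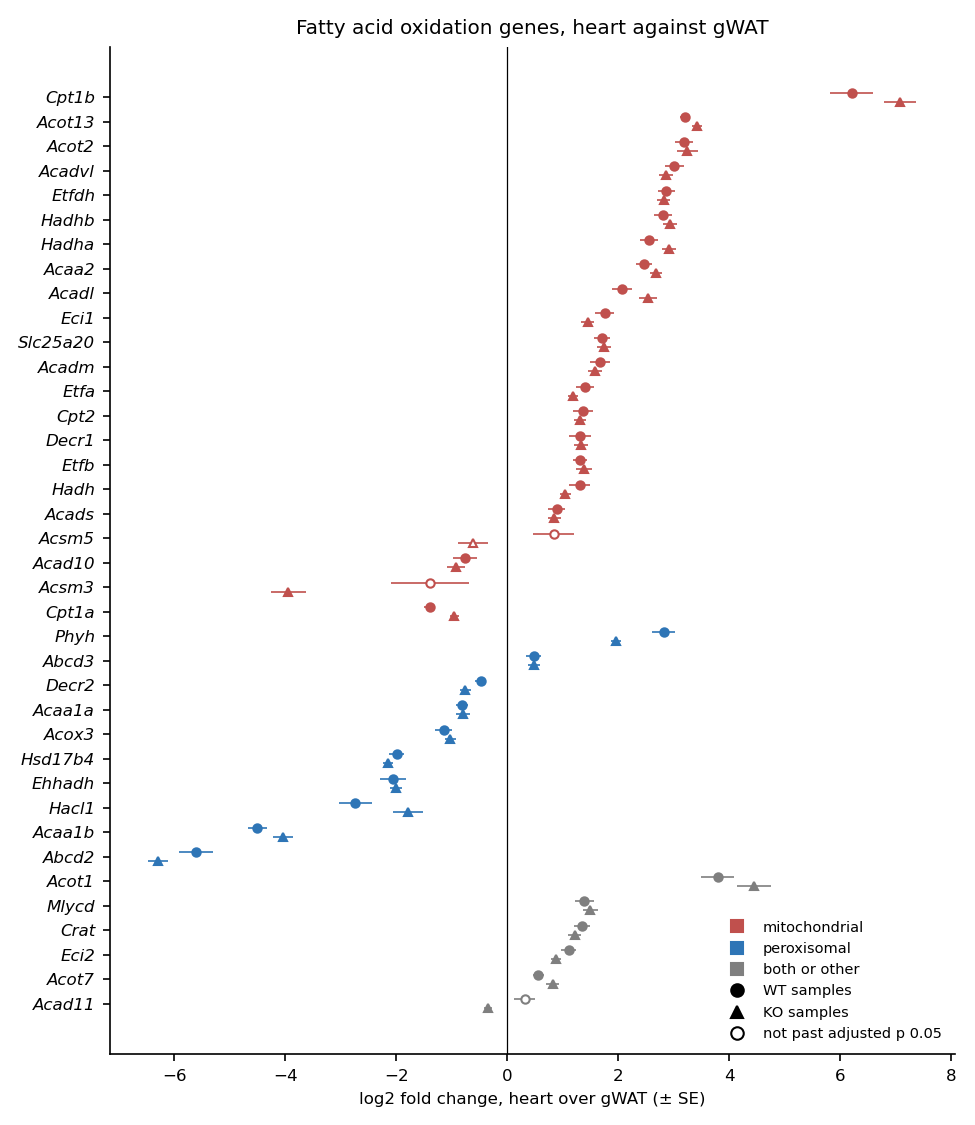
Log2 fold change of heart over gWAT (x axis, ± SE) for each of the 38 members (y axis), with circles for WT and triangles for KO libraries, colours for the compartment and open symbols where the adjusted p did not pass 0.05. Most mitochondrial members lie right of 0, up to 6.20 for Cpt1b in WT, and most peroxisomal members lie left of it, down to -5.61 for Abcd2 in WT.

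The carnitine shuttle held the member with the largest excess in heart, Cpt1b, and a gene that went the other way, Cpt1a. Cpt1b, the muscle form of the outer membrane palmitoyltransferase (ENSMUSG00000078937, chr15:89416405-89425863), was at 20.3, 14.8, 19.5 and 19.4 CPM in heart WT and at 0.516, 0.0499 and 0.195 in gWAT WT. It was higher in heart by 6.20 ± 0.38 (log2, SE), on 14 reads in all 3 gWAT WT libraries together, and by 7.08 ± 0.30 between the KO libraries. Reads of this gene carry a limit: 93% of its 50-base stretches also occur in the overlapping same-strand transcript Gm44502, which has no row in the table, and the labels do not state how reads shared by both were counted. Cpt1a, the form that predominates in liver (ENSMUSG00000024900, chr19:3322334-3385733), was at 75.9, 70.7, 77.5 and 73.8 CPM in heart WT and at 182, 220 and 186 in gWAT WT. It was the shuttle gene that was lower in heart, by -1.40 ± 0.10 in WT and -0.95 ± 0.08 in KO, with no overlap between tissues. Per kilobase of the full transcript, Cpt1a was listed above Cpt1b within heart itself, at 17.3 ± 0.688 against 6.40 ± 0.861 CPM per kb (SD, n = 4) in WT. Reads of Cpt1b lost to Gm44502 would lower its level, so neither this order nor the size of the ratio that follows is secure. The log2 ratio of Cpt1b to Cpt1a per length was -1.44 ± 0.16 in heart WT and -1.59 ± 0.27 in heart KO (SD, n = 4), a difference of -0.15 (two-sided exact permutation p = 0.371, adjusted over 2 tissues 0.743; smallest possible 0.0286). In gWAT the ratio was -9.30 ± 1.58 in WT and -9.53 ± 0.64 in KO (SD, n = 3), a difference of -0.22 (same permutation test, p = 0.9). The smallest possible p there was 0.1, so that test could not pass, and Cpt1b had only 1 to 9 reads per gWAT library. Slc25a20, the carnitine-acylcarnitine carrier, and Cpt2, the inner membrane transferase, were higher in heart by 1.71 ± 0.14 and 1.36 ± 0.19 in WT. Crat, which makes acetylcarnitine, and Mlycd, which degrades the Cpt1 inhibitor malonyl-CoA, were higher by 1.34 ± 0.14 and 1.39 ± 0.17.

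The acyl-CoA dehydrogenases catalyse the first step of each cycle. Acadvl, the very-long-chain enzyme (ENSMUSG00000018574, chr11:70010183-70015411), was at 832, 870, 1062 and 1115 CPM in heart WT and at 137, 104 and 121 in gWAT WT. It was 8.07-fold higher in heart (log2 3.01 ± 0.17), and its lowest heart library was far above its highest gWAT library. Of its 50-base stretches, 24% overlap Dvl2 on the opposite strand, and Dvl2 itself differed between tissues by -0.13 ± 0.19, which did not pass. Acadl and Acadm, the long-chain and medium-chain enzymes, were 4.18-fold and 3.19-fold higher in heart. Acads, the short-chain enzyme, was 1.85-fold higher. Acad10 went the other way, by -0.76 ± 0.22, at no more than 3.96 CPM in heart WT. With the replicate number as a block it did not pass edgeR's quasi-likelihood test (-0.64 ± 0.24, adjusted p = 0.0514). Acad10 shares 20.4% of its 50-base stretches with Acad12, which averaged 60.6 CPM in heart WT and 17.2 in gWAT WT, so reads may be split between them. Acad11 was not called in WT at 0.32 ± 0.19 but was lower in heart by -0.35 ± 0.08 in KO. Without gWAT WT library 1, the WT library with the most Acad11, it passed in WT as higher in heart by 0.59 ± 0.13.

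The next steps of the cycle and the electron acceptors were also higher in heart in all 7 cases. Hadha and Hadhb, the subunits of the trifunctional protein, whose genes share the 85 bases printed above, were 5.88-fold and 6.99-fold higher in WT and 7.55-fold and 7.64-fold higher in KO. Hadhb shares 61.5% of its 50-base stretches with the pseudogene Gm13910, which was listed at 197 to 274 CPM in heart and 27.6 to 36.1 in gWAT, so reads may be split between them. Acaa2, the last thiolase of the mitochondrial cycle, was 5.53-fold higher, and Hadh, the short-chain hydroxyacyl dehydrogenase, 2.47-fold. Etfdh, which passes electrons to ubiquinone (ENSMUSG00000027809, chr3:79603788-79629500), was at 649, 653, 809 and 826 CPM in heart WT and at 116, 88.9 and 98.4 in gWAT WT. It was 7.29-fold higher (log2 2.87 ± 0.16), more than its partners Etfa at 1.41 ± 0.16 and Etfb at 1.31 ± 0.12. Etfb shares 67.3% of its 50-base stretches with Gm45233, which has no row in the table. Decr1, needed for polyunsaturated fatty acids, was higher by 1.31 ± 0.19, and the isomerases Eci1 and Eci2 by 1.75 ± 0.17 and 1.11 ± 0.13.

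Thioesterases, which release free fatty acids from acyl-CoA, included 3 of the 6 members with the largest excess in heart. Acot13 (ENSMUSG00000006717, chr13:24817948-24831540) was at 199, 199, 214 and 221 CPM in heart WT and at 22.4, 22.9 and 22.4 in gWAT WT. Acot2, a mitochondrial enzyme, was at 61.8, 61.4, 82.4 and 85.4 CPM in heart WT and at 7.28, 8.43 and 8.14 in gWAT WT. Both were about equally higher in heart, by 3.21 ± 0.09 and 3.19 ± 0.16, with wide gaps between the tissues. Acot1, its cytosolic neighbour on chromosome 12, was at 8.78, 8.93, 12.9 and 14.6 CPM in heart WT and at 0.631, 1.10 and 0.682 in gWAT WT, higher by 3.79 ± 0.29. Acot1 and Acot2 share 23.9% and 24.5% of their 50-base stretches, so part of each value may come from the other. Acot7, another cytosolic enzyme, was higher by 0.56 ± 0.10, but was at -0.03 on library totals.

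The peroxisomal cycle was lower in heart at each of its 6 listed enzymes. Hsd17b4, the D-bifunctional protein that combines hydratase and dehydrogenase activity, was at 107, 93.6, 112 and 114 CPM in heart WT and at 499, 354 and 423 in gWAT WT. Ehhadh, the L-bifunctional protein (ENSMUSG00000022853, chr16:21761287-21787807), was at 10.7, 7.41, 13.5 and 13.1 CPM in heart WT and at 62.4, 36.7 and 41.1 in gWAT WT. Both were lower in heart by similar amounts, -1.99 ± 0.13 and -2.06 ± 0.24, and neither had overlapping tissues. Acaa1b, a peroxisomal thiolase (ENSMUSG00000010651, chr9:119148023-119157093), was at 2.58, 2.23, 3.86 and 2.88 CPM in heart WT and at 72.1, 59.7 and 64.1 in gWAT WT, lower in heart by -4.50 ± 0.16. Its close copy Acaa1a was lower by -0.81 ± 0.11, at 28.6 to 35.6 CPM in heart WT and 52.3 to 62.0 in gWAT WT. The 2 copies were thus at similar levels in gWAT, whereas in heart WT Acaa1a was at 17.96 ± 1.72 and Acaa1b at 1.71 ± 0.413 CPM per kb (SD, n = 4). Acox3, an oxidase for branched chains, was lower by -1.15 ± 0.16 and Decr2, the peroxisomal dienoyl-CoA reductase, by -0.48 ± 0.10.

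Peroxisomal transporters and alpha oxidation genes were split between the tissues. Abcd2, an importer of very-long-chain acyl-CoA (ENSMUSG00000055782, chr15:91145871-91191799), was at 6.80, 13.3, 12.99 and 7.14 CPM in heart WT and at 643, 353 and 480 in gWAT WT. It was 48.8-fold lower in heart in WT (log2 -5.61 ± 0.31) and 78.5-fold lower in KO. Abcd3, an importer of branched-chain acyl-CoA, was the nearest to equal of the called members in WT, higher in heart by 0.48 ± 0.14, and this direction rests on the scaling: on library totals it was at -0.09. Without gWAT WT library 4 it did not pass either, at 0.42 ± 0.17 (adjusted p = 0.0559). Phyh, the phytanoyl-CoA hydroxylase that opens alpha oxidation (ENSMUSG00000026664, chr2:4919019-4938730), was the peroxisomal member with the largest excess in heart, at 457, 477, 507 and 548 CPM in heart WT and at 95.4, 51.3 and 65.0 in gWAT WT. It was higher in heart by 2.82 ± 0.21 in WT and 1.95 ± 0.09 in KO. Hacl1, the lyase of the next step of alpha oxidation (ENSMUSG00000021884, chr14:31598730-31641286), was at 0.603, 0.536, 0.609 and 0.991 CPM in heart WT and at 5.62, 3.29 and 4.92 in gWAT WT. It was lower in heart by -2.74 ± 0.30, on 29 reads over the 4 heart WT libraries, so the 2 genes of this pathway lay on opposite sides.

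Acsm3 and Acsm5, medium-chain acyl-CoA synthetases of mitochondria, were the mitochondrial members that did not pass in WT, at -1.39 ± 0.70 and 0.84 ± 0.37. Between the KO libraries Acsm3 was lower in heart by -3.94 ± 0.31, and Acsm5 did not pass at -0.62 ± 0.27. Single libraries and the processing moved these calls. In WT, Acsm3 passed without gWAT WT library 3 (-1.80 ± 0.67), and Acsm5 passed without heart WT library 2 (1.02 ± 0.36) or gWAT WT library 1 (1.18 ± 0.38). In KO, Acsm5 passed as lower in heart without gWAT KO library 3 (-0.74 ± 0.30) or 4 (-0.86 ± 0.25). With all libraries, Acsm3 passed in WT on library totals (-1.91 ± 0.69), with the replicate number as a block (-2.07 ± 0.44) and in 1 fit of all groups (-1.39 ± 0.58). Acsm5 passed in WT with DESeq2 (0.87 ± 0.39), with the block (1.015 ± 0.35) and in 1 fit of all groups (0.83 ± 0.36). It passed in KO on library totals (-1.12 ± 0.27) and with no filter (-0.70 ± 0.23).

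**Figure D2:**
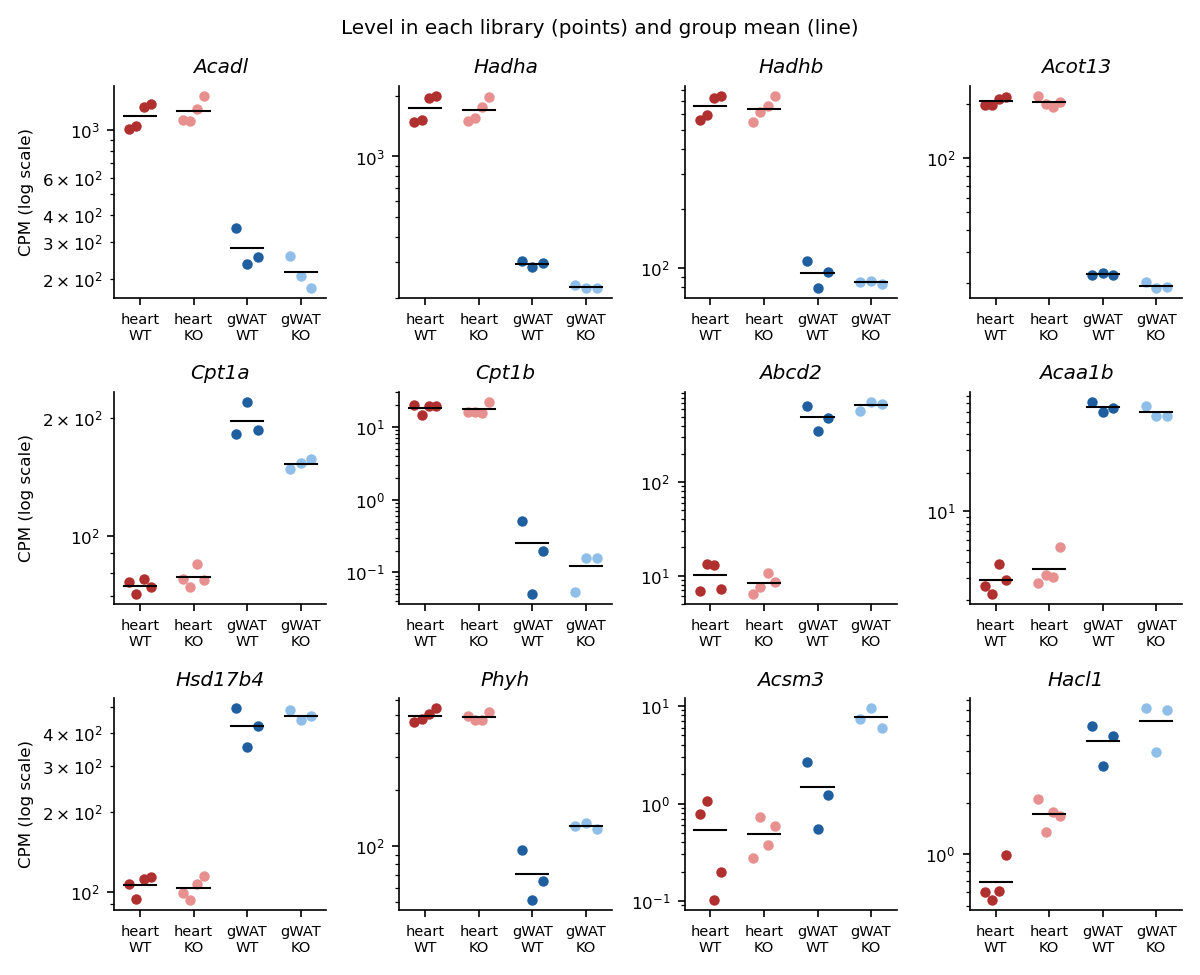
CPM in each library (log scale, y axis; each panel has its own range) for 12 members in the 4 groups on the x axis, with points for libraries and a line for the group mean. Acadl to Cpt1b show the tissue difference of mitochondrial members with Cpt1a reversed, Abcd2 to Hsd17b4 the opposite one, and Phyh and Acsm3 the higher gWAT KO libraries.

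Ordered per kilobase, the mitochondrial enzymes filled the top of the heart and peroxisomal genes moved up in gWAT. In heart WT the order began with Acadl at 608.5 ± 85.3, Acadm at 589 ± 84.1 and Acaa2 at 529.5 ± 77.4 CPM per kb (SD, n = 4). The ranges of mean ± SD of these 3 overlap, as do those of Acadvl at 447 ± 64.4 and Hadha at 432 ± 69.6. These SDs are between libraries, and all the genes were measured in the same libraries, so they do not settle the order. The order was not tested. Phyh, 8th, was the only gene counted as peroxisomal among the first 20, and the lowest was Acsm3 at 0.195 ± 0.169. In gWAT WT the order began with Acadm at 185 ± 39.9, Hsd17b4 at 158 ± 27.0, Etfa at 155 ± 31.9, Acadl at 146 ± 31.1 and Hadh at 141 ± 34.5 (SD, n = 3). Each differed from the next by less than its SD, which likewise does not settle the order. Abcd2 was 7th there at 89.0 ± 26.3, against 34th in heart WT, and Cpt1b was last at 0.0876 ± 0.0824.

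Averaged per library, mitochondrial minus peroxisomal level was larger in heart than in gWAT. These averages are not divided by transcript length, so the sign and size within a library do not compare the 2 compartments. Only changes between libraries are read. The mean log2(CPM + 0.5) of the mitochondrial members was 7.42 ± 0.16 in heart WT and 5.73 ± 0.23 in gWAT WT, and that of the peroxisomal members 4.54 ± 0.13 and 6.04 ± 0.24 (SD, n = 4 and 3). Mitochondrial minus peroxisomal was 2.85 to 2.95 over the heart WT libraries and 2.73 to 2.85 over the heart KO libraries. In gWAT it was -0.33 to -0.30 in WT and -0.44 to -0.33 in KO. The KO mean was below the WT mean by 0.10 in heart, but by 0.01 without Hacl1, which is counted on few reads there. In gWAT the KO mean was below by 0.06, and by 0.14 without Phyh, Acsm3 and Acsm5. Members are not replicates, so these averages carry no test.

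**Figure D3:**
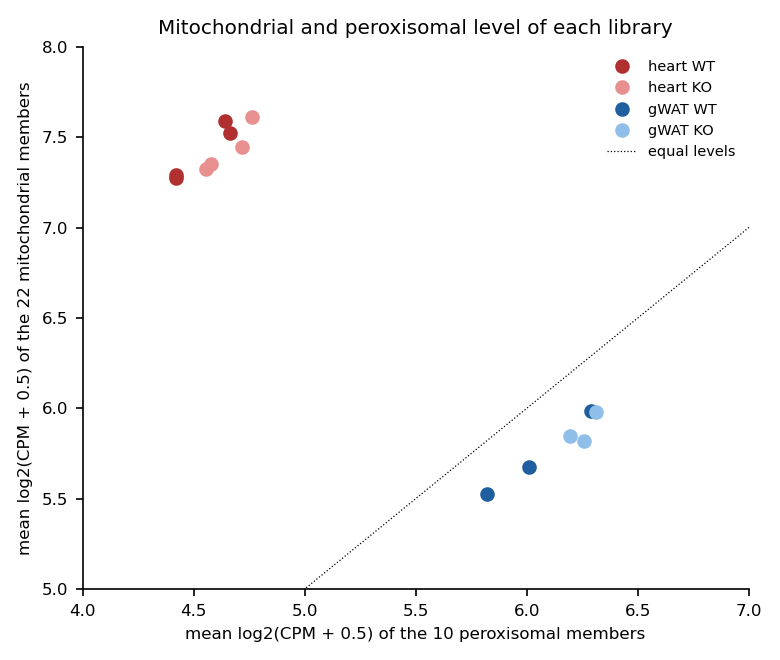
Mean log2(CPM + 0.5) of the 10 peroxisomal members (x axis) and of the 22 mitochondrial members (y axis) in each of the 14 libraries, coloured by group, with a dotted line where both are equal. The 8 heart libraries lie 2.73 to 2.95 above the line and the 6 gWAT libraries 0.30 to 0.44 below it. Levels are not divided by transcript length, so the line does not mark equal expression of the compartments. Only the shift between libraries is read.

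Within heart, the libraries numbered 3 and 4 were higher in most members than those numbered 1 and 2, in both genotypes. In WT, both libraries 3 and 4 were above both libraries 1 and 2 for 31 of 37 members tested in heart and below both for 0, against 27.1% above and 25.9% below over all 14159 genes tested. In KO it was 21 of 37 above and 0 below, against 19% and 20.2%. Of the 21 mitochondrial members tested, 19 showed it in WT and 14 in KO. The mean mitochondrial level was 7.29 and 7.27 in WT libraries 1 and 2 and 7.52 and 7.59 in libraries 3 and 4, and in KO 7.35 and 7.32 against 7.45 and 7.61. Markers of atrial cardiomyocytes (6 genes) split the same way in the opposite direction. They summed to 4625, 3800, 108 and 152 CPM in WT libraries 1 to 4 and to 4939, 5433, 658 and 1086 in KO. Cardiomyocyte markers summed to 46270, 44900, 49580 and 51030 CPM in WT and to 45050, 47570, 45780 and 52180 in KO. Mesothelium markers (6 genes) were also lower in libraries 3 and 4, at 224, 290, 48.9 and 42.8 CPM in WT and 185, 221, 49.8 and 96.2 in KO. Fibroblast and progenitor markers (6 genes) split in WT, at 1536, 1501, 1185 and 1203 CPM, but not in KO, at 1278, 1551, 1453 and 1214. The part of these cell types in the members' levels was not tested.

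In heart, no member passed the test for the knockout. Of 37 members tested (Acsm3 did not pass the filter on low counts), 0 were called by edgeR's quasi-likelihood test with Benjamini-Hochberg adjustment, where 1 of 14159 genes, Fhl2 itself, was called (0.00706%), and DESeq2 and limma-voom also called 0 members. The members' median log2 fold change, KO over WT, was -0.01, and -0.003 over all genes. The member with the smallest p, and the 1 member with an unadjusted p under 0.05 (3.2% of all genes), was Hacl1. It was at 0.603, 0.536, 0.609 and 0.991 CPM in WT and at 2.099, 1.34, 1.76 and 1.68 in KO. All 4 KO libraries were above all 4 WT libraries, a pattern that 1.28% of genes showed, at a log2 fold change of 1.32 ± 0.30 with an adjusted p of 0.9997. This rests on 29 reads in WT and 72 in KO, and 55.6% of the 50-base stretches of Hacl1 also occur in Gm49387, which has no row in the table. The next smallest p-values were those of Acaa1a, at 0.18 ± 0.08, and Acad10, at 0.28 ± 0.18, neither of which passed. The members other than Hacl1 lay between -0.28 for Abcd2 and 0.30 for Acaa1b. With the number as a block, an uncertain pairing, 0 members passed as well. The same held with libraries 1 and 2 against 3 and 4 as a covariate, also 0 members.

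In gWAT, 2 members rose in the knockout and none passed in the other direction. Phyh, of peroxisomal alpha oxidation, rose 1.82-fold, and Acsm3, the medium-chain synthetase, rose 5.23-fold. They were the 2 of 37 members tested that passed edgeR's quasi-likelihood test with Benjamini-Hochberg adjustment, where 5.49% of 15200 genes passed (2.01% higher and 3.48% lower), a share close to the 2 of 37. These counts over all genes changed with single libraries: 0 genes passed without WT library 4 or without any of the KO libraries, 45 higher and 87 lower without WT library 3, and 1201 higher and 1707 lower without WT library 1. Cpt1b did not pass the filter on low counts. The members' median log2 fold change was 0.09, against 0.00 over all genes (9.321e-05).

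Phyh was at 95.4, 51.3 and 65.0 CPM in gWAT WT libraries 1, 3 and 4 and at 128, 133 and 123 in the KO libraries. The KO libraries lay close together and all above WT, whose library 1 was the nearest to them. Its log2 fold change was 0.87 ± 0.19 (adjusted p = 0.0426). Acsm3 (ENSMUSG00000030935, chr7:119760923-119787513) was at 2.69, 0.548 and 1.22 CPM in WT and at 7.30, 9.62 and 5.99 in KO, again without overlap and again with WT library 1 the nearest. Its log2 fold change was 2.39 ± 0.45 (adjusted p = 0.0296), on 83 reads in WT and 436 in KO. Acsm3 overlaps Eri2 on the opposite strand over 27% of its 50-base stretches, and Eri2 differed by 0.06 ± 0.13 (adjusted p = 0.825). Both calls rest on few libraries. Leaving out any library other than WT 1 ended both, with adjusted p from 0.07155 to 0.184 for Phyh and from 0.0508 to 0.141 for Acsm3, and without WT library 1 there were 7 members higher and 2 lower. By limma-voom, Phyh did not pass either (adjusted p = 0.051).

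**Figure D4:**
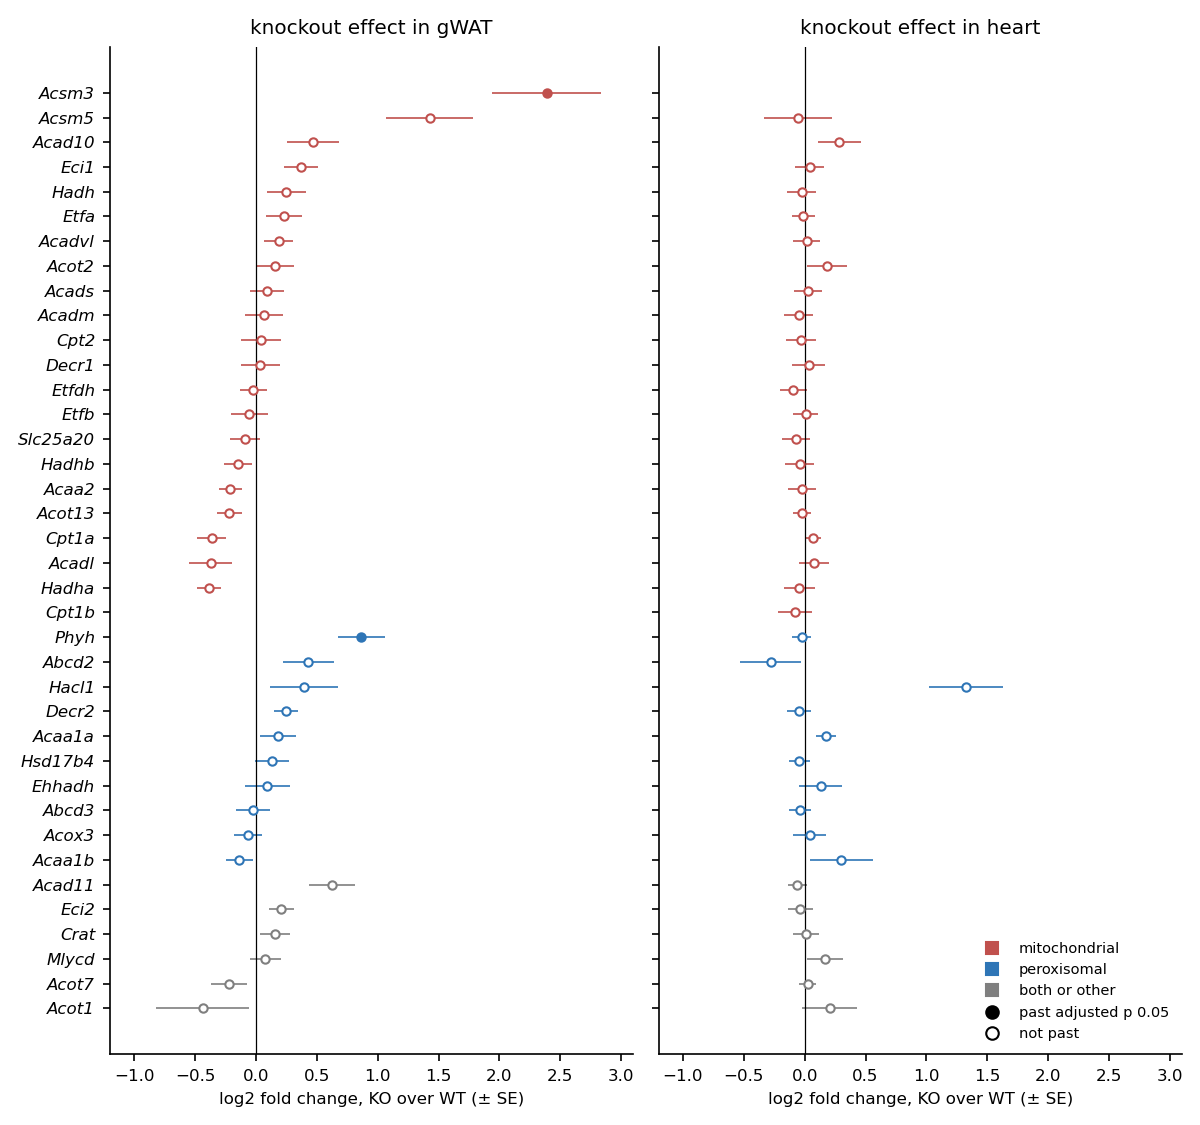
Log2 fold change of KO over WT (x axis, ± SE) for each member (y axis) in gWAT (left) and heart (right), coloured by compartment, with filled symbols where the adjusted p passed 0.05 and no symbol where the gene was filtered out. The filled points are Acsm3 at 2.39 and Phyh at 0.87 in gWAT, and in heart the point farthest from 0 is Hacl1 at 1.32.

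The members nearest to passing in gWAT lay on both sides of 0. Acsm5, at 4.99, 2.24 and 3.22 CPM in WT and 13.7, 7.90 and 6.25 in KO, was at 1.43 ± 0.36 (adjusted p = 0.0572). Hadha, at 304, 283 and 299 CPM in WT and 233, 223 and 223 in KO, was at -0.38 ± 0.10 (adjusted p = 0.0621), with KO below WT. Acad11, at 180, 100 and 122 CPM in WT and 196, 209 and 212 in KO, was at 0.62 ± 0.19 (adjusted p = 0.0937). Cpt1a, at 182, 220 and 186 CPM in WT and 148, 153 and 158 in KO, was at -0.36 ± 0.12 (adjusted p = 0.114). None of these 4 had overlapping groups. In all, 6 members had every KO library above every WT library and 4 had every one below, against 12.4% and 15.2% of all genes, and 8 had an unadjusted p under 0.05, against 23.1%. The other members with groups apart were Eci1 and Decr2 above, at 0.37 ± 0.14 and 0.25 ± 0.10, and Acaa2 and Acot13 below, at -0.21 ± 0.09 and -0.22 ± 0.10. By role, the shuttle genes tested lay between -0.36 and 0.04, the electron transfer genes between -0.05 and 0.23, the peroxisomal cycle between -0.14 and 0.25 and the 2 transporters at -0.02 and 0.43, with 0 called in each. The mitochondrial acyl-CoA dehydrogenases lay between -0.37 and 0.47, the hydratase, dehydrogenase and thiolase genes between -0.38 and 0.25, and the cytosolic thioesterases Acot1 and Acot7 at -0.44 and -0.22, again with 0 called.

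Marker genes of several cell types were also called between the gWAT groups. White adipocyte markers summed to 27340, 17530 and 21400 CPM in WT libraries 1, 3 and 4 and to 28190, 25000 and 26540 in KO, with 2 of 9 genes called higher. These sums overlapped. Of the 9 genes, 1 went the other way without being called, Lep, at 5357, 2866 and 4321 CPM in WT and 2299, 3526 and 3301 in KO. Macrophage markers (8 genes) summed to 1301, 2762 and 2207 CPM in WT and to 1020, 1023 and 1130 in KO, with 4 called lower, and 7 of 9 markers of lipid-associated macrophages were called lower. Mesothelium markers (6 genes) summed to 203, 91.8 and 170 CPM in WT and to 340, 419 and 252 in KO, with 3 called higher. All these calls ended without WT library 4 or without any of the KO libraries, where 0 genes passed. WT library 1, the WT library nearest to the KO values of Phyh and Acsm3, also had the most white adipocyte and the fewest macrophage marker counts of the WT group. The part of these cell types in the values of Phyh and Acsm3 was not tested.

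Of the other listed genes of fatty acid oxidation, 3 rose in gWAT KO and none passed in the other direction, where 2.01% of all genes were called higher. Eci3, a peroxisomal isomerase close in sequence to Eci2, was at 4.99, 2.74 and 3.85 CPM in WT and at 10.7, 11.5 and 11.8 in KO, a rise of 1.56 ± 0.20 (adjusted p = 0.0209). Its KO libraries lay well above every WT library. It was the 1 called of 11 further chain enzymes tested, among which Hsd17b10 at 0.43 ± 0.12 and Acadsb at 0.65 ± 0.20 did not pass. The peroxisomal thioesterase Acot4 rose by 0.93 ± 0.16 (adjusted p = 0.0267), alone among 8 thioesterases and nudix hydrolases tested. The peroxisomal membrane channel Pxmp2 rose by 1.11 ± 0.21 (adjusted p = 0.0306), alone among 21 genes of peroxisome assembly and matrix. All 3 calls ended without WT library 4 or any KO library, with adjusted p from 0.0815 to 0.132, and that of Acot4 also without WT library 3 (adjusted p = 0.0573). None of 11 activation and uptake genes and none of 12 regulators and reporter targets passed, the former including Acsl3 at -0.35 ± 0.17 and Acsl5 at -0.19 ± 0.10. At an unadjusted p under 0.05 there were 0 and 2 of these by edgeR's test. In heart, 0 genes of these 5 lists passed edgeR's test, and 0 had an unadjusted p under 0.05.

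Between tissues in WT, where 33.3% of all genes were higher in heart and 36.1% lower, these lists differed as well. Among them, 13 of 21 genes of peroxisome assembly and matrix were lower in heart and 2 higher, with a median of -0.66, among them catalase (Cat) at -1.54 ± 0.17. Of 13 regulators and reporter targets, 9 were higher in heart and 2 lower, with a median of 1.97. Ppargc1a, a coactivator of mitochondrial genes, was higher by 5.94 ± 0.17, Esrrg, an estrogen-related receptor, by 3.995 ± 0.195 and the fatty acid receptor Ppara by 3.61 ± 0.20. The remaining lists were mixed and nearer to the shares over all genes, with 3 higher and 6 lower of 12 activation and uptake genes, 6 and 4 of 11 chain enzymes, and 3 and 3 of 8 thioesterases and nudix hydrolases.

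The knockout effect in heart minus that in gWAT was tested directly in 1 fit of all 14 libraries. No member passed, where 184 of 16014 genes did (1.15%, 126 higher and 58 lower), and 7 of 38 members had an unadjusted p under 0.05 (15.2% of all genes). DESeq2 called 2, Phyh and Cpt1a. The nearest by edgeR's quasi-likelihood test were Phyh at -0.88 ± 0.22 (adjusted p = 0.0575), Cpt1a at 0.43 ± 0.12 (adjusted p = 0.0851) and Acad11 at -0.67 ± 0.21 (adjusted p = 0.125). In heart itself Phyh differed between genotypes by -0.02 ± 0.08 and Cpt1a by 0.07 ± 0.07. Of the other listed genes of fatty acid oxidation, Pxmp2 passed, at -1.14 ± 0.24 (adjusted p = 0.0397), but with any 1 library other than gWAT WT library 1 left out it did not (adjusted p from 0.0509 to 0.103). Over all genes the counts fell to 1 higher and 2 lower without gWAT WT library 4, and to between 2 and 44 higher and 4 and 23 lower without any 1 of the others except gWAT WT library 1, without which they were 822 and 493. Acsm3 was at -2.57 ± 0.85 and Acsm5 at -1.47 ± 0.49, and neither passed. Without gWAT WT library 1, 5 members passed, namely Phyh at -1.16 ± 0.15, Cpt1a at 0.48 ± 0.12, Acad11 at -0.95 ± 0.14, Acsm3 at -3.30 ± 0.78 and Acsm5 at -1.82 ± 0.50.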

How the data were processed

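RNA was counted in 14 libraries. Per the labels' protocols, RNA of frozen tissue was extracted with Trizol and sequenced from Kapa mRNA Hyperprep libraries. The authors deposited whole-number read counts per Ensembl gene. The submitters' processing notes list HTSeq 0.11.0 and HISAT2 2.1.0, Trimmomatic 0.32, Picard, FastQC and limma, with genome build mm10. The annotation release, strand setting and rule for ambiguous reads were not given in the sources used here. IDs without a symbol held 0.0132% of reads and were kept. Duplicate libraries were looked for, and none was found (smallest chi-square per degree of freedom within a group 3.739).

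Each comparison was fitted in R 4.3.3 with edgeR 4.0.16 (filterByExpr, TMM, glmQLFit and glmQLFTest, Benjamini-Hochberg over all genes tested, threshold 0.05). Each standard error is the log2 fold change divided by the square root of its F statistic. Members were annotated with GENCODE M21 on GRCm38, and 50-base stretches of the principal transcript were searched in other genes. Alternatives were RLE scaling, library totals, 2 other filters, DESeq2 1.42.0, limma-voom 3.58.1, a replicate block, 1 fit of all groups and leaving out each library. For the knockout in heart, a covariate for libraries 1 and 2 against 3 and 4 was a further alternative. The scripts were tested on simulated data. Same-numbered heart libraries correlated at 0.245, 0.341, 0.347 and 0.265 in their deviations from the group means. The main fits hold no pairing, and the number, a pairing read from the data, enters only as the replicate block among the alternatives. WT 1 correlated more with KO 2 (0.443) than with KO 1, so libraries 1 and 2 also stand together, and the numbers are an uncertain pairing. The 38 members, the other lists and their compartments were chosen with earlier results of these data known. Values of every library are given for members called for the knockout, the 6 with the largest fold in each direction between tissues in WT, and Cpt1a and Cpt1b. The values of Acsm5, Hadha and Acad11 were chosen after they were seen. A few other genes of the pathway are not reported here.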

Additional observations from a re-analysis of the deposited data

Results flagged for a closer look

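In the heart groups of 4 libraries, 5 of 76 member and group pairs held a library far from the other 3, by a gap above the Dixon critical value for 4 samples. Chance flags about 1 in 20 such groups. Cpt1b was at 14.83 CPM in heart WT library 2, below the next value of 19.43, and at 22.34 CPM in heart KO library 4, above the next value of 16.16. Acads was at 142.0 CPM in heart KO library 2, below the next value of 172.2. Eci2 was at 156.3 CPM in heart KO library 4, above the next value of 134.3. Hacl1 was at 0.9914 CPM in heart WT library 4, above the next value of 0.609, and still below every heart KO library.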

How the results depend on the processing

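With 3 libraries a group, the count of members higher in gWAT KO (2) was 4 with no filter, 4 with DESeq2, 1 with limma-voom, 0 with the replicate number as a block, 4 in 1 fit of all groups, and 0 to 7 with a library left out. The count lower (0) was 1 on library totals, with DESeq2 and in 1 fit of all groups, and 0 to 2 with a library left out. In gWAT the numbers pair no libraries (correlations -0.111, -0.224 and 0.0416). Between tissues, same-numbered libraries 1, 3 and 4 correlated at 0.0453, 0.0832 and -0.0316 in WT and at 0.225, -0.0129 and 0.108 in KO, so a pairing there is uncertain. For heart minus gWAT, the count higher (0) was 1 with DESeq2 and 0 to 1 with a library left out, and the count lower (0) was 1 on library totals, 3 with no filter, 1 with DESeq2 and 0 to 4 with a library left out. On library totals the median of all genes, heart over gWAT, moved to -0.61 in WT and -0.49 in KO, and Abcd3 reversed to -0.0942 in WT and -0.0246 in KO and Acot7 to -0.0287 in WT. There the mean mitochondrial level was 1.14 higher in heart in WT and 1.09 in KO, and the peroxisomal -2.06 and -2.07. By medians over members the mitochondrial difference was 1.25 in WT and 1.26 in KO. With genes of both compartments counted as peroxisomal, the peroxisomal difference was -0.45 in WT and -0.53 in KO. Mitochondrial minus peroxisomal, KO minus WT, was -0.0139 in heart without Hacl1 and -0.144 in gWAT without Phyh, Acsm3 and Acsm5, both chosen after seeing the data. Over all genes in gWAT KO, 305 higher and 529 lower became 585 and 1015 with no filter, 671 and 1098 with DESeq2, 583 and 1142 in 1 fit of all groups and 0 and 0 with the block, and limma-voom gave 264 lower. With a library left out they were 0 to 1201 higher and 0 to 1707 lower. Counts of members called between tissues stayed within 1.5 times under the alternatives run. Among single values of members under the alternatives, 10 of 570 newly passed and 2 no longer passed between tissues in WT, 4 of 570 newly passed in KO (the reversed values above, which no longer passed either, not counted), 16 of 518 newly passed and 13 no longer passed in gWAT, 11 of 798 newly passed for heart minus gWAT, and 0 of 629 passed in heart. The cause of these shifts was not tested.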
